A study of Mus musculus with 6 samples.

Results

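The genes described here were 9 neurotrophic and growth factor genes, *Bdnf*, *Gdnf*, *Ntf3*, *Cntf*, *Fgf1*, *Fgf2*, *Vegfa*, *Igf1* and *Igf2*, chosen by name among 24421 genes listed in the CPM and TPM tables. The choice was made with earlier results of these data known. All 9 were listed. RNA came from hippocampal astrocytes of C57BL/6 mice, 2 days after an intraperitoneal injection of PBS (3 libraries) or of diphtheria toxin (DT) at 50 μg/kg (3 libraries), and the comparison asks how astrocyte RNA differs once microglia have been ablated. All mice, controls included, were *Siglech* dtr/dtr. In these mice the DT receptor is made under control of *Siglech*, which among brain cells is used nearly only by microglia, and Siglec-H itself is strongly reduced in homozygotes with or without DT. No library came from mice without the dtr allele, so microglial loss and any other action of DT cannot be told apart. According to the methods of the study, the mice were adult males, each library was a pool of 2 mice, and the 3 libraries of a group came from independent experiments. CD11b-bearing cells were removed with magnetic beads before astrocytes were captured by the ACSA-2 antigen.

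Growth factors of these families are secreted or released proteins that act on receptors at the surface of neurons, glia or vessels. Neurotrophins such as BDNF and NT-3 signal through Trk receptor kinases, GDNF through GFRα1 with Ret, and CNTF through CNTFRα with LIFR and gp130. FGFs, VEGF-A and the IGFs each have their own receptor kinases, and IGFs are also held by binding proteins. Astrocytes are known sources of FGFs and VEGF-A, adult neurons of BDNF, and microglia and macrophages of IGF-1, while IGF-2 in the adult brain is known chiefly from the choroid plexus and meninges.

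Each library held 21704891 to 32933975 reads assigned to genes, so that 1 read was worth 0.0301 to 0.0460 CPM. The sum of 15 astrocyte markers lay between 61479 and 66676 CPM after PBS and between 64803 and 72462 CPM after DT. Markers of other cells were present at lower levels. The sum of 14 microglia markers was 265 to 304 CPM after PBS and 149 to 168 CPM after DT. Much of the DT sum was *Sall1*, which was nearly equal in the groups, at 79.2 CPM after PBS and 77.1 CPM after DT. The sum therefore does not give the share of microglial RNA left after DT. Of the 14 genes, 9 were called lower, against 0.159% of all genes tested. *Siglech* itself was at 0.967, 2.14 and 1.93 CPM after PBS and at 0 in every DT library, and was tested through its PBS values alone. In bulk RNA of this kind, fewer cells of a type and less RNA per cell cannot be told apart.

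None of the growth factor genes passed the test after DT. Of the 9 genes, 7 reached the mean of 0.5 CPM required for testing, and 0 of these 7 had an adjusted p under 0.05 (limma on log2(CPM + 0.1), two-sided, Benjamini-Hochberg adjustment over all 15137 genes tested). Over all genes tested, 0.713% were called in either direction, 0.555% higher and 0.159% lower. At an unadjusted p under 0.05 the growth factor genes numbered 5 of 7, against 10.4% of all genes tested, with 3 higher (5.91% of all genes) and 2 lower (4.51%). The DT values of *Bdnf*, *Cntf* and *Igf1* were all above their PBS values (3 of 7), as for 8.75% of all genes tested, and 0 of 7 had the DT values all below, as for 7.57%. In either direction 16.3% of all genes tested had groups that did not overlap. DESeq2 and the edgeR exact test on recovered reads each called 0 of the 7 as well, and each had 3 at an unadjusted p under 0.05. The median log2 fold change of the 7 genes was 0.51, and that of all genes tested was -0.01.

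In TPM, which is per length of transcript and so allows genes to be compared, the growth factors spanned more than 3 orders of magnitude. *Vegfa* stood at 508 ± 54.4 TPM after PBS (SD, n = 3) and *Fgf1* at 125 ± 5.62 TPM. *Igf2* followed at 40.3 ± 16.9 TPM, *Fgf2* at 13.2 ± 2.55 TPM, *Cntf* at 7.34 ± 0.660 TPM and *Bdnf* at 2.02 ± 1.01 TPM. *Vegfa* alone made up 72.8% of the summed TPM of the 9 genes after PBS and 67.8% after DT. The genes down to *Bdnf* kept this order in each group, with ranges over libraries that did not touch those of the neighbours. Below *Bdnf*, *Ntf3* (0.497 ± 0.206 TPM) and *Igf1* (0.399 ± 0.154 TPM) had overlapping ranges in both groups, and *Igf1* and *Gdnf* (0.273 ± 0.0261 TPM) overlapped after PBS only.

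**Figure D1:**
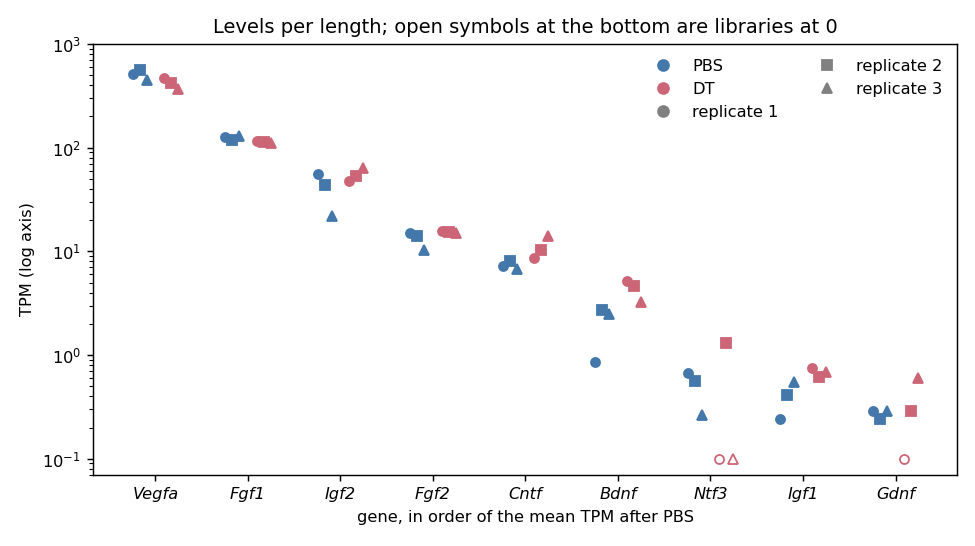
TPM of each growth factor gene in each library, on a log axis, with genes in order of their mean after PBS, PBS libraries in blue and DT libraries in red. *Vegfa* lies highest at 372 to 559 TPM, *Fgf1* next at 112 to 131 TPM, and 3 library values of *Ntf3* and *Gdnf* are at 0 and drawn as open symbols at the bottom edge.

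The place of *Fgf2* in this order rested on a short length. The ratio of CPM to TPM, calibrated on 836 genes with a single annotated transcript, implied a length of 700 bases for *Fgf2*, while its longest annotated transcript has 5973 bases. For *Bdnf*, *Vegfa*, *Fgf1* and *Igf1* the implied length was 4086, 3300, 3910 and 7218 bases, near the longest annotated 4266, 3451, 3983 and 7052 bases. By CPM, which is not divided by length, *Fgf2*, *Cntf* and *Bdnf* stood together at 3.16, 3.04 and 2.83 CPM after PBS. If only a stretch of the implied length was counted for *Fgf2*, reads outside it would be missing from its CPM too. CPM is therefore no check on the place of *Fgf2*, and which of its reads were counted was not tested.

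*Vegfa* encodes the main growth factor of blood vessels. It occupies chromosome 17 from 46016993 to 46032369, minus strand (mm10, GENCODE M21), with 13 annotated transcripts, and had 9475 to 20375 reads per library. After PBS it ranked at percentile 99.0 among tested genes by CPM. The promoter is shown because *Vegfa* was by far the most abundant of these transcripts: it is the 120 bases before the upstream RefSeq start (chr17:46032378-46032497, minus strand, GRCm38.p6), with capitals on the GC box GGGCGG, a binding motif of Sp1.
Vegfa: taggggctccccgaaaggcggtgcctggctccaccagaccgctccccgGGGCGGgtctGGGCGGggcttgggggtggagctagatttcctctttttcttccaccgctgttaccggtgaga
A search of the 250 bases before this start on both strands found 2 GC boxes and no ACGTG, the core of the hypoxia response element. The same search before the other of the 2 *Vegfa* starts in the RefSeq table found 1 GC box and 1 ACGTG. Among 32851 such windows of mouse genes, 32.74% held a GC box and 16.57% held ACGTG.

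*Vegfa* was at 607, 614 and 504 CPM in the PBS libraries and at 541, 481 and 413 CPM in the DT libraries. The groups overlapped, since DT replicate 1 lay above PBS replicate 3. The fitted log2 fold change was -0.27 (standard error 0.11, 95% confidence interval -0.52 to -0.01), and it did not pass the test (limma adjusted p = 0.460, unadjusted p = 0.0409). Reads were plentiful here: counting error alone gives a coefficient of variation of 0.821% after PBS, against 10.7% seen between libraries. Genes of the hypoxia response, of which *Vegfa* is a classical target, were listed beside it. Of 18 tested, 0 were called and the median log2 fold change was -0.05. The most abundant, the glucose transporter gene *Slc2a1* and the HIF-2α gene *Epas1*, stood at 369 and 286 TPM after PBS and at 357 and 268 TPM after DT.

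*Fgf1* and *Fgf2* encode acidic and basic fibroblast growth factors, which leave cells without a classical signal peptide. *Fgf1* (minus strand of chromosome 18, 38838673 to 38929472) was at 171, 157 and 174 CPM after PBS and at 157, 148 and 148 CPM after DT, and the groups overlapped only because PBS replicate 2 and DT replicate 1 were nearly equal. Its coefficient of variation between libraries was 5.50% after PBS and 3.70% after DT. On the log2 scale the difference was -0.15 (standard error 0.06, 95% confidence interval -0.30 to -0.01), with limma adjusted p = 0.461. *Fgf1* lies inside *Arhgap26*, a gene on the other strand, with 0 shared exon bases. *Arhgap26* had a log2 fold change of -0.15 (limma adjusted p = 0.446).

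*Fgf2* (plus strand of chromosome 3, 37348346 to 37410108) had far fewer reads, 54 to 111 per library. It was at 3.68, 3.32 and 2.48 CPM after PBS and at 3.75, 3.61 and 3.53 CPM after DT. PBS replicate 3 was the lowest and the other 5 libraries lay close together. The log2 fold change was 0.21 (standard error 0.21, 95% confidence interval -0.26 to 0.68, limma adjusted p = 0.774), and without PBS replicate 3 it was 0.05. Of its 6782 exon bases, 640 are shared with *Nudt6* on the other strand, which was at 5.48 ± 0.923 and 7.19 ± 1.10 CPM (limma adjusted p = 0.514). The study mapped reads with strand, so these reads are separable in principle. On the same strand, 255 exon bases of *Fgf2* are shared with *Gm43439*, which was not in the table.

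*Bdnf* encodes the neurotrophin that acts on TrkB and that neurons make in response to activity. It lies on the plus strand of chromosome 2, from 109674700 to 109727007, shares 896 of its exon bases with the antisense gene model *Gm45346*, which was not in the table, and has several alternative promoters, 7 of which are in the RefSeq table. The stretch shown is the 120 bases before 1 of these starts (chr2:109692316-109692435, plus strand, GRCm38.p6), chosen because it alone of the 7 held TGACG, the shortened cAMP response element, here read from the other strand and marked by capitals.
Bdnf: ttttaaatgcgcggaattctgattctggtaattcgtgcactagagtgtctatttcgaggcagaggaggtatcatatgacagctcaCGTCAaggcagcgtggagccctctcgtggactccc
TGACG occurred in 17.77% of the 32851 windows of 250 bases before mouse starts, and the complete element TGACGTCA, absent from the 7 windows, in 1.546%. The site overlaps an ACGTG read from the other strand. The tables hold 1 value per gene, so the values below are not divided between promoters.

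*Bdnf* was at 1.29, 3.71 and 3.49 CPM after PBS and at 7.38, 6.21 and 4.45 CPM after DT. Each DT library lay above each PBS library, by a narrow gap between PBS replicate 2 and DT replicate 3, and PBS replicate 1 stood below all others at 28 reads. The log2 fold change of 1.17 (standard error 0.39, 95% confidence interval 0.28 to 2.05) was the largest of the 7 genes and did not pass the test (limma adjusted p = 0.361, unadjusted p = 0.0160). Without PBS replicate 1 it was 0.69. An exact permutation test of CPM gave p = 0.1, two-sided, the smallest that 3 against 3 libraries allow. The sum of 12 neuron markers was at 642, 777 and 859 CPM after PBS and at 529, 817 and 1020 CPM after DT. The part of neuronal RNA in the *Bdnf* values was not tested.

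**Figure D2:**
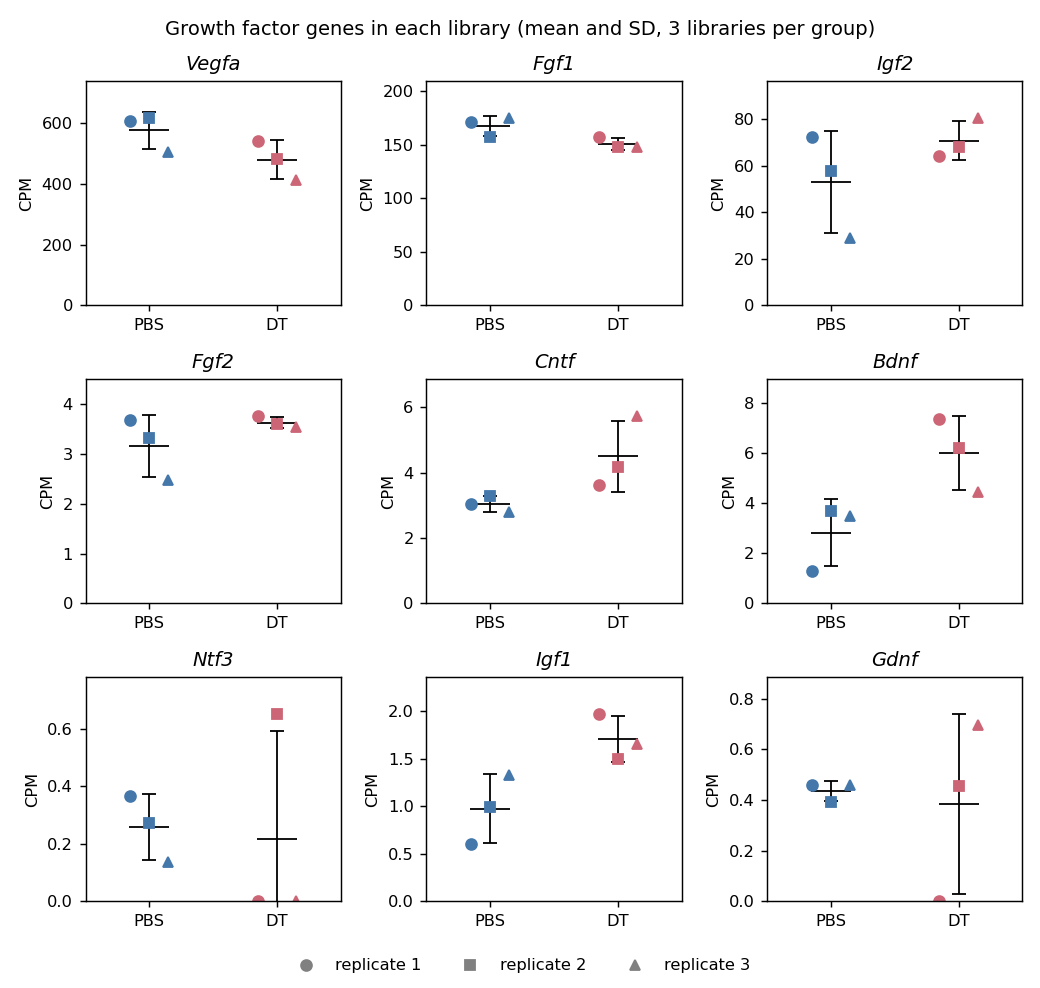
CPM of each growth factor gene in the 3 PBS libraries (blue) and 3 DT libraries (red), each panel with its own axis from 0, with marker shapes for replicates and a bar for the mean with SD; lower ends of bars that pass 0 are cut off. The groups are apart for *Bdnf*, *Cntf* and *Igf1* and overlap for the other 6 genes.

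*Ntf3*, the gene of NT-3, and *Gdnf*, the gene of a survival factor for dopaminergic and motor neurons, were barely detected and stayed under the level needed for testing. *Ntf3* (minus strand of chromosome 6, 126101412 to 126166910) was at 0.368, 0.271 and 0.138 CPM after PBS and at 0, 0.650 and 0 CPM after DT, with DT replicate 2 holding all 20 reads of its group. *Gdnf* (plus strand of chromosome 15, 7810846 to 7837575) was at 0.460, 0.392 and 0.459 CPM after PBS and at 0, 0.455 and 0.698 CPM after DT. Reads per library were 0 to 20 for *Ntf3* and 0 to 16 for *Gdnf*. A library at 0 allows a level of up to 0.131 CPM, the worth of 3 reads, and this covers counting error only. The groups overlapped for both genes, and no difference was detectable at this depth.

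*Cntf* encodes ciliary neurotrophic factor, a cytokine of the interleukin-6 family that astrocytes are known to make. It was at 3.04, 3.29 and 2.80 CPM after PBS and at 3.62, 4.16 and 5.71 CPM after DT. The PBS libraries lay close together and all DT libraries above them, with DT replicate 3 the highest. On the log2 scale the difference was 0.53 (standard error 0.22, 95% confidence interval 0.03 to 1.02), which did not pass the test (limma adjusted p = 0.453), and without DT replicate 3 it was 0.34. *Cntf* (minus strand of chromosome 19, 12763660 to 12765632) is uncertain as a readout because 847 of its 1073 exon bases, 78.9%, also belong to *Zfp91* on the same strand. *Zfp91* had 4969 to 7944 reads per library, against 61 to 131 for *Cntf*, and stood at 234 ± 5.67 CPM after PBS and 231 ± 2.00 CPM after DT. How the counting divided reads between these genes was not tested.

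*Igf1* encodes insulin-like growth factor 1. The gene is on the plus strand of chromosome 10, from 87858265 to 87937042, and had 13 to 46 reads per library. It was at 0.599, 0.995 and 1.33 CPM after PBS and at 1.96, 1.495 and 1.66 CPM after DT, with no overlap between the groups. On the log2 scale the difference was 0.80 (standard error 0.34, 95% confidence interval 0.03 to 1.57), with limma adjusted p = 0.466. Without PBS replicate 1 it was 0.52. The markers of its known myeloid sources ran in opposite directions. While the microglia sum was lower in every DT library, the sum of 11 border-associated macrophage markers was at 46.1, 40.6 and 61.4 CPM after PBS and at 113, 114 and 99.4 CPM after DT. All 9 of these macrophage markers that were tested were above 0 in log2 fold change. Of these, 3 were called higher, *Mrc1*, *Lyve1* and *F13a1*, against 0.555% of all genes tested. *Cbr2* and *Siglec1* averaged 0.276 and 0.269 CPM after PBS and reached the mean of 0.5 CPM only through their DT values. Their direction was thus set by the filter. *Ms4a7* and *Cd209f* were under the filter and not tested. *Cbr2* was at 0 in PBS replicates 1 and 2. The part of macrophage RNA in the *Igf1* values was not tested.

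*Igf2*, an imprinted gene (minus strand of chromosome 7, 142650766 to 142666816), was at 72.2, 57.6 and 28.9 CPM after PBS and at 64.2, 67.9 and 80.3 CPM after DT. The DT libraries were alike and PBS replicate 3 stood low, so that the coefficient of variation was 41.6% after PBS and 11.9% after DT, where counting error alone gives 2.70% and 2.36%. Its log2 fold change was 0.51 (standard error 0.29, 95% confidence interval -0.14 to 1.16, limma adjusted p = 0.587), and without PBS replicate 3 it was 0.13. The sum of 11 choroid plexus markers was at 179, 872 and 48.9 CPM after PBS and at 1525, 1007 and 551 CPM after DT. Most of this sum was *Ttr*, at 152, 807 and 33.4 CPM after PBS and at 1416, 917 and 489 CPM after DT. All 11 markers were above 0 in log2 fold change, with a median of 1.70. At an unadjusted limma p under 0.05, 8 of the 11 were higher, against 5.91% of all genes tested. None of the 11 was called, and *Slc4a5* and *Tmem72* were at 0 in PBS replicate 3. The sum of 11 meningeal fibroblast markers was at 235, 160.3 and 218 CPM after PBS and at 152, 158 and 185 CPM after DT. Most of this meningeal sum was *Pdgfra*, which is also a marker of oligodendrocyte precursors. *Pdgfra* was at 153, 105 and 135 CPM after PBS and at 86.4, 83.9 and 99.6 CPM after DT. The libraries ranked differently in *Igf2*, in the choroid plexus sum and in the meningeal sum. The part of choroid plexus or meningeal RNA in the *Igf2* values was not tested. Of the exon bases of *Igf2*, 62.8% are shared with the same-strand gene model *Gm49394*, which was not in the table. On the other strand, *Igf2os* shares 98 exon bases with *Igf2* and was at 0.621 CPM after PBS and 0.519 CPM after DT.

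**Figure D3:**
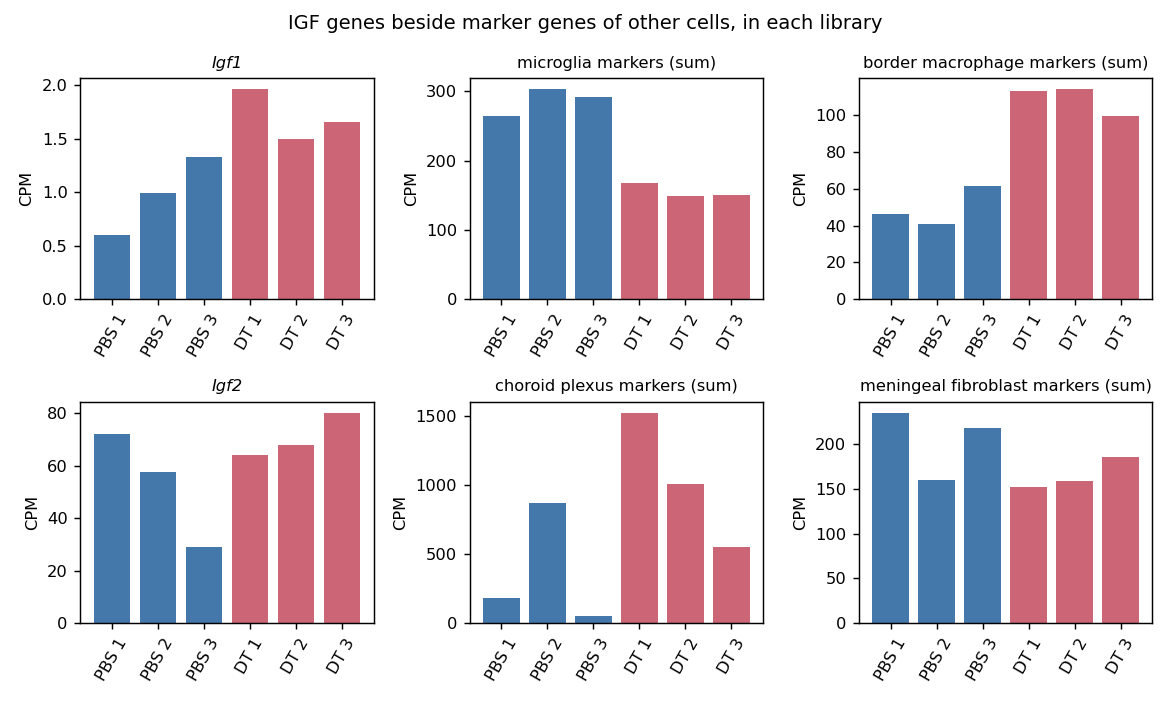
CPM of *Igf1*, *Igf2* and the summed CPM of markers of microglia, border-associated macrophages, choroid plexus and meningeal fibroblasts, 1 bar per library, PBS in blue and DT in red. Macrophage markers lie at 40.6 to 61.4 CPM after PBS and at 99.4 to 114 CPM after DT, microglia markers run the other way, and the choroid plexus sum ranges from 48.9 to 1525 CPM.

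The receptors of these factors were mostly well expressed in the same libraries, and none was called. Of 22 receptor genes listed, 20 were tested, 0 passed in either direction, 14 were below 0 and 6 above 0 in log2 fold change, and the median was -0.10. The FGF receptor gene *Fgfr3* stood at 920 TPM after PBS and 840 TPM after DT, *Fgfr1* at 322 and 323 TPM, and *Fgfr2* at 182 and 169.6 TPM. *Ntrk2*, the gene of the BDNF receptor TrkB, stood at 867 and 906 TPM (log2 fold change 0.06, standard error 0.08). The ligand *Bdnf*, at 2.02 and 4.35 TPM, was thus at a small fraction of the level of its receptor gene in the same libraries. Values are per gene, so transcript forms of *Ntrk2* were not told apart. *Ntrk3*, the receptor gene of NT-3, was at 35.2 and 34.8 TPM.

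The IGF receptors *Igf1r*, *Igf2r* and *Insr* were at 48.6, 39.5 and 50.9 TPM after PBS and at 45.6, 42.3 and 47.7 TPM after DT. Of the CNTF receptor complex, *Lifr* was at 88.3 and 79.9 TPM and *Il6st*, the gene of gp130, at 135 and 142 TPM. *Cntfr*, the ligand-binding subunit, was at 237, 183 and 199 CPM after PBS and at 117, 121 and 183 CPM after DT. Its groups were apart by under 0.1 CPM, between PBS replicate 2 and DT replicate 3, and its log2 fold change of -0.58 (standard error 0.17) gave limma adjusted p = 0.277. With DESeq2 it was called lower (adjusted p = 0.0291), and likewise by limma without DT replicate 3 (adjusted p = 0.0257).

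*Gfra1*, which binds GDNF, was at 7.14, 10.7 and 8.68 CPM after PBS and at 13.1, 13.1 and 54.7 CPM after DT. DT replicate 3 decided its size: the log2 fold change was 1.27 (limma adjusted p = 0.426) with it and 0.58 without it. *Ret*, the signalling partner, was at 1.52 TPM after PBS and 0.750 TPM after DT, with limma adjusted p = 0.426. The VEGF receptor genes *Flt1* and *Kdr* were at 157 and 56.2 TPM after PBS and at 116 and 36.8 TPM after DT, with log2 fold changes of -0.43 and -0.59 and limma adjusted p of 0.380 and 0.225. *Kdr* was called lower by DESeq2 (adjusted p = 0.00907) and by the edgeR exact test (adjusted p = 0.0348). Both genes are endothelial markers. The sum of the other 8 markers of that list ranged from 508 to 834 CPM after PBS and from 443 to 533 CPM after DT, with all 8 below 0 in log2 fold change and 0 called, and the part of endothelial RNA in these receptor values was not tested.

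**Figure D4:**
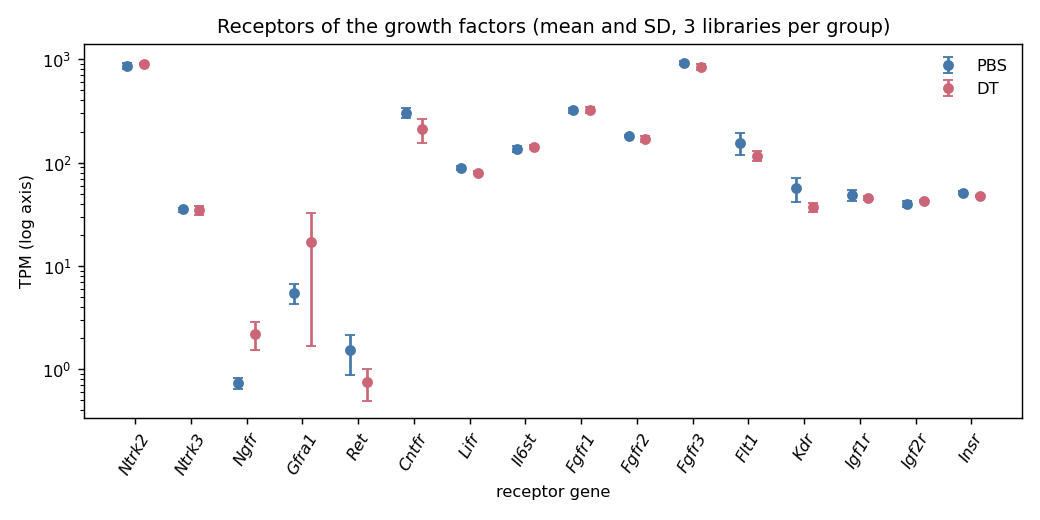
Mean TPM with SD of receptor genes of the growth factors after PBS (blue) and DT (red), 3 libraries per group, on a log axis. *Fgfr3* and *Ntrk2* lie highest, between 840 and 920 TPM, and the widest bar is that of *Gfra1* after DT, 16.9 ± 15.2 TPM.

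Among the neighbouring pathway genes, 3 passed the test. *Igfbp5*, which encodes a protein that binds IGFs, was at 342, 325 and 309 CPM after PBS and at 577, 479.7 and 489.9 CPM after DT. The groups were far apart, and the log2 fold change was 0.66 (standard error 0.08, limma adjusted p = 0.00921). Without a variance trend the call was lost (limma adjusted p = 0.0992). It was the 1 gene called among 8 tested of the IGF binding proteins and their proteases, whose median log2 fold change was 0.17. The most abundant of that list, *Igfbp2*, was at 276 and 306 TPM and was not called (limma adjusted p = 0.612).

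*Hgf*, the gene of hepatocyte growth factor, was at 17.8, 19.2 and 18.8 CPM after PBS and at 44.5, 39.4 and 37.1 CPM after DT. It rose in every DT library, with a log2 fold change of 1.11 (standard error 0.09, limma adjusted p = 0.00115). The size was close to that of *Bdnf*, but the standard error was 0.09 rather than 0.39. It was the 1 gene called among 20 tested of the other growth factors of the brain, where the median was 0.01. The most abundant of them, the heparin-binding factor genes *Ptn* and *Mdk*, were at 2677 and 173 TPM after PBS and at 2350.0 and 125 TPM after DT, with limma adjusted p of 0.356 and 0.464.

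*Etv5*, a transcription factor gene that FGF signalling through ERK is known to induce, was at 218, 222 and 218 CPM after PBS and at 176, 169 and 159 CPM after DT. It fell in every DT library, with a log2 fold change of -0.39 (standard error 0.06, limma adjusted p = 0.0276). Leaving out any library but DT replicate 1 ended that call, with limma adjusted p of 0.0782 to 0.135, as did a fit without a variance trend (limma adjusted p = 0.173). It was the 1 gene called among 18 tested of the ERK feedback and early target genes, with a median log2 fold change of -0.03. The most abundant of these, the ERK inhibitor gene *Spred1* and the immediate early gene *Fos*, were at 245 and 185 TPM after PBS and at 216 and 192 TPM after DT.

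**Figure D5:**
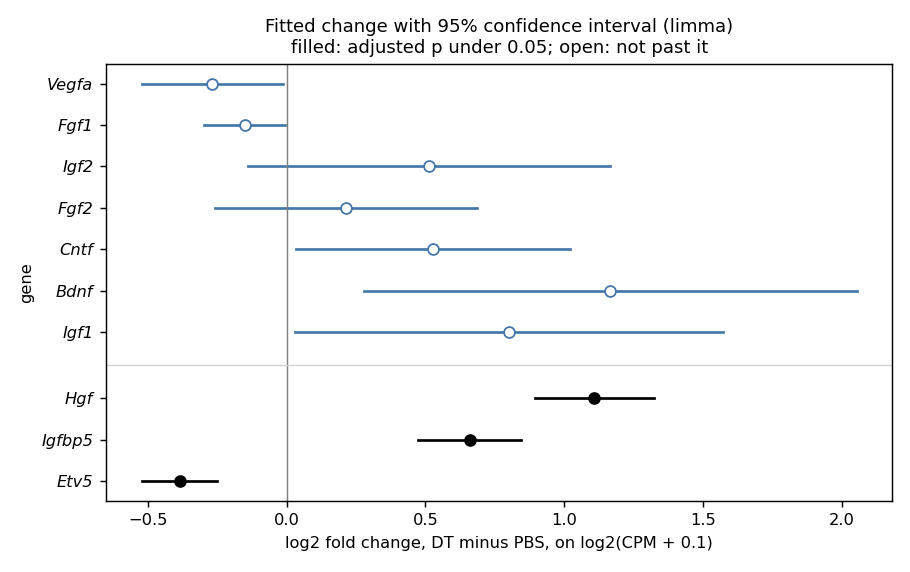
Log2 fold change, DT minus PBS, with 95% confidence interval for the 7 growth factor genes tested and, under the line, for *Hgf*, *Igfbp5* and *Etv5*; filled points passed an adjusted p of 0.05. Intervals of the growth factor genes are widest for *Bdnf* (0.28 to 2.05) and narrowest for *Fgf1* (-0.30 to -0.01), and all 7 points are open.

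For the 3 growth factor genes with at least 100 reads in each library, the genes most alike across the 6 libraries were sought among 11790 genes by Pearson's r of log2(CPM + 0.1), given as a description since many genes were searched over few libraries. The profile of *Vegfa* was most like those of *Spag9* (r = 0.995), *Gpm6b* (r = 0.992) and *Gpc5* (r = 0.990), and 78 genes exceeded an r of 0.95. For *Fgf1* they were *Trmt44* (r = 0.990), *Tmem106b* (r = 0.990) and *Bdh1* (r = 0.987), with 43 genes over 0.95. For *Igf2* they were *Trim33* (r = 0.994), *Mok* (r = 0.992) and *Fads3* (r = 0.986), with 28 genes over 0.95.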

How the data were processed

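Astrocyte RNA of 3 PBS and 3 DT libraries was compared, grouped by the labels. Per the labels and the methods of the study, libraries were made with a stranded SMARTer kit, and the authors trimmed reads with Trim Galore 0.5.0, mapped them to mm10 with HISAT2 2.1.0, removed ribosomal reads with bedtools 2.25.0, quantified genes with StringTie 1.3.5 and used edgeR 3.24.3. The deposited TPM are per transcript length. The authors' CPM were deposited as a scaled signal, divided by library sizes times TMM factors (0.974 to 1.02), so columns sum to 980428 to 1026170, and not the plain CPM that the design assumed. The authors' own p-values, q-values and fold changes, in the same tables, were not used.

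Whole reads were recovered from the CPM steps (100% of values within 0.1 read). Genes with a mean of at least 0.5 CPM were compared on log2(CPM + 0.1) by limma 3.58.1 (R 4.3.3), letting the variance follow the level. The added 0.1 draws changes of low genes towards 0. Against DESeq2 the fitted log2 fold change was still larger for *Bdnf* (1.17 against 1.08), and it was smaller for *Cntf* (0.53 against 0.56). Alternatives were pseudocounts of 0.5 and 1, no filter, a mean of at least 2 CPM, TPM, quantile normalization, no trend, leaving out each library, a block for the replicate number, edgeR 4.0.16 (quasi-likelihood and exact) and DESeq2 1.42.0 on recovered reads. The fits were tested on simulated data. Members, lists, tests and alternatives were chosen with earlier results of these data known. Named were all 9 genes, their main receptors, the 2 genes of highest TPM in the other pathway lists, and list genes called. Genes sharing exon bases with a member and the 3 genes most alike in profile were named too. *Ngfr*, *Angpt1* and other genes in the closing section were chosen after their values were seen. Promoter sequences are from RefSeq (GRCm38.p6), positions from GENCODE M21. Levels need at least 3 reads to be set apart from 0, and intervals cover the spread between 3 pools per group.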

Additional observations from a re-analysis of the deposited data

How the results depend on the processing

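Of the 7 growth factor genes tested, 0 were called under any of 17 alternatives, and none turned its direction. *Ntf3* and *Gdnf* were tested only without a filter, where they were not called. The log2 fold change ranged over them from 0.69 to 1.42 for *Bdnf*, 0.34 to 0.67 for *Cntf*, -0.20 to -0.12 for *Fgf1*, 0.05 to 0.33 for *Fgf2*, -0.36 to -0.17 for *Vegfa*, 0.47 to 1.04 for *Igf1* and 0.13 to 0.79 for *Igf2*. The lowest adjusted p was 0.0923, for *Vegfa* with the replicate block. Their number at an unadjusted p under 0.05 was 1 to 5. *Igf1* was not in the fit at a mean of at least 2 CPM.

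Over all genes, 84 were called higher and 24 lower, against 227 and 98 with DESeq2, 189 and 72 with the edgeR exact test, and 35 and 11 without a variance trend. Leaving out 1 library gave 39 to 72 higher and 9 to 20 lower, with the fewest higher without DT replicate 1 (39) and DT replicate 2 (40), and the fewest lower without PBS replicate 2 (9), PBS replicate 3 (10), DT replicate 2 (10) and PBS replicate 1 (11). Same-numbered libraries did not deviate together (correlations 0.158, -0.253 and 0.0637 over 7716 genes), so pairing by number was neither stated by the labels nor seen here. This check cannot show whether PBS and DT pools shared an experiment under another numbering. The main fit used no pairing. A fit with the replicate block called 79 higher and 30 lower.

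Receptors called numbered 1 higher and 2 lower with DESeq2, 1 and 1 with the exact test, and 0 higher and 1 lower without DT replicate 3, with a range of 0 to 1 lower over libraries left out. The IGF binding protein list had 0 higher without a trend, where *Igfbp5* had adjusted p = 0.0992. The other growth factors had 2 higher with DESeq2 and with the exact test. The ERK list had 0 lower without a trend (*Etv5*, adjusted p = 0.173), and 0 to 1 over libraries left out. *Hgf* was called in 17 of 17 alternatives. The cause of these moves was not tested. Depth limits *Ntf3*, *Gdnf* and *Igf1*, which had at most 46 reads in a library.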

Other observations

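The remaining ligands of the same families were sparse. Of 36 genes listed, 35 were in the table, 9 were at 0 in every library (*Il6*, *Fgf3*, *Fgf4*, *Fgf6*, *Fgf8*, *Fgf15*, *Fgf20*, *Fgf21* and *Fgf23*), and 15 were tested, with 0 called and a median log2 fold change of 0.05. *Vegfb* was the most abundant at 183 TPM after PBS and 178 TPM after DT, followed by *Fgf11*, whose product stays inside the cell, at 24.9 and 29.2 TPM. *Lif*, which shares LIFR and gp130 with CNTF, was at 5.84 and 8.43 TPM with the groups apart (log2 fold change 0.51, limma adjusted p = 0.393). *Fgf7* was at 2.85 and 4.88 TPM, also with the groups apart (log2 fold change 0.66, limma adjusted p = 0.469).

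The low-affinity neurotrophin receptor gene *Ngfr*, which binds BDNF and NT-3, was at 1.01, 0.844 and 0.781 CPM after PBS and at 3.49, 2.34 and 1.88 CPM after DT. The groups did not overlap, with 17 to 80 reads per library. On the log2 scale the difference was 1.41 (standard error 0.30), with limma adjusted p = 0.114, and the gene was called by DESeq2 (adjusted p = 0.0108) and by the edgeR exact test (adjusted p = 0.00196). *Angpt1*, the ligand gene of the vessel receptor Tie2, was at 46.4, 57.6 and 49.5 CPM after PBS and at 85.4, 73.2 and 65.2 CPM after DT. Its log2 fold change was 0.54 (standard error 0.12), with limma adjusted p = 0.113, and it was called by DESeq2 (adjusted p = 0.00195) and by the exact test (adjusted p = 0.0087). Its range of adjusted p over the 17 alternatives was 0.00195 to 0.342. These genes were singled out after their values had been seen.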
